A study of Mus musculus with 2 samples.

Results

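The genes described here encode the proteasome, and were taken as the protein-coding genes of GENCODE M21 whose symbol starts with Psma, Psmb, Psmc, Psmd, Psme, Psmf or Psmg. The rule found 50 of the 21853 protein-coding genes of that annotation. It uses names only, so it also takes Psmc3ip, a meiotic recombination factor that is no proteasome subunit, and it misses proteasome genes with other names, which are described near the end. Chromatin accessibility was measured by DNase-seq, in which DNase I cuts DNA that is not packed into nucleosomes and the cut ends are sequenced. The tissue label reads layer of hippocampus, and a second label Hippocampus. It came from female mice of the strain B6CASTF1/J, the F1 cross of C57BL/6J and CAST/EiJ, at 2 months of age. The labels give 1 group of 2 libraries, called biological replicates 1 and 2, with no treatment and no second condition. The replicates have separate biosample records under a shared donor record. Whether they stem from different animals is not stated, and the spread between them may be technical. No comparison between conditions exists in this design, and with 2 libraries of 1 group no test was made: every difference below is a description.

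The proteasome degrades proteins that carry ubiquitin chains. Its barrel-shaped core particle, named 20S for its sedimentation, is built of outer alpha rings and inner beta rings, and 3 of the beta subunits cut peptide bonds. The 19S cap binds ubiquitylated proteins, unfolds them with a ring of ATPases and feeds them into the core. Interferon-exposed and immune cells exchange the catalytic beta subunits for Psmb8, Psmb9 and Psmb10, which makes the immunoproteasome, known for producing peptides presented on MHC class I. Neurons rely on the constitutive form for protein turnover at synapses.

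For each gene the promoter was the 1 kb on either side of every start site (TSS) of its protein-coding transcripts. Its promoter value in a library was the highest signal of a deposited peak overlapping that window, in the longer of the 2 peak lists of each library, and 0 where no peak was listed. The signal is the authors' value per peak. Values below 1 were whole multiples of 1 step per library, 0.00884 in replicate 1 and 0.0103 in replicate 2. The signal was therefore read as a tag count scaled to the library, but neither this reading nor the scale is stated by the authors. The highest promoter peaks of the proteasome genes held between 113 and 1263 steps in replicate 1 and between 152 and 608 in replicate 2. Replicate 1 had 129779 peaks and 227153 footprints, and replicate 2 had 71895 peaks and 118610 footprints, so replicate 1 lists more weak sites. Markers of the labelled tissue were accessible. All 5 neuronal markers and all 4 dentate gyrus and CA markers had a promoter peak in both libraries, against 59.0% of all protein-coding genes. Of 3 astrocyte and 3 oligodendrocyte markers 2 each had one in both, and none of 3 lymphocyte markers had one in either. The tissue is a mixture of cell types, and a low value cannot be told apart from a site open in few of its cells.

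Nearly all proteasome promoters were accessible in the hippocampus. A peak was listed for 47 of the 50 genes in replicate 1, where 63.4% of all protein-coding genes had one, and for 46 in replicate 2, where 60.4% had one. In both libraries together 46 genes, 92.0%, had a peak, against 59.0% of all protein-coding genes. The median promoter value of the 50 genes was 4.22 in replicate 1 and 3.31 in replicate 2, against 1.20 and 1.17 over all protein-coding genes. The proteasome genes therefore lay high among promoters, but not at the top: the median member stood above 76.6% of all genes in replicate 1 and above 76.0% in replicate 2. The 4 genes without a peak in both libraries were Psma8, Psmb11, Psme2b and Psmb10. They are an immunoproteasome subunit, the core subunits of testis and thymus, and a paralog of Psme2.

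**Figure D1:**
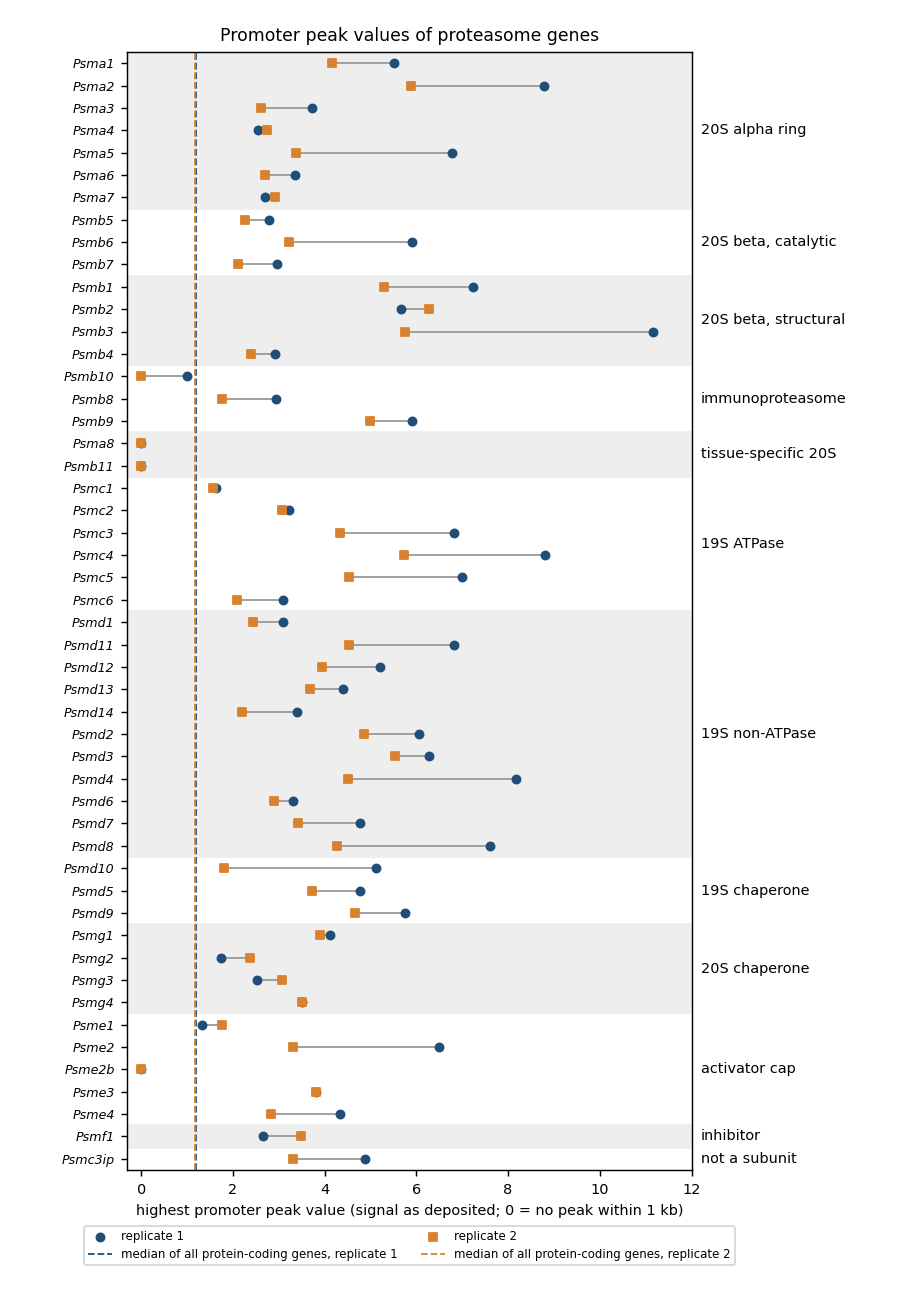
Promoter values of the proteasome genes, grouped by role, with 1 point per library; the horizontal axis is the authors' peak signal and the vertical lines mark the medians over all protein-coding genes. Psmb3 reached 11.2 in replicate 1, while Psma8, Psmb11 and Psme2b sit at 0 in both libraries.

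The CpG content of these promoters gives a closer background. RefSeq start windows, from 250 bases before to 50 after the start, matched 42 of the 50 genes, and 29 of the 42 (69.0%) had a CpG observed-to-expected ratio of at least 0.6, against 49.9% of all genes. The median ratio was 0.749 against 0.599. Among all protein-coding genes at or above that CpG limit 91.2% had a promoter peak in both libraries, with median values of 3.72 and 3.11. The share of accessible proteasome promoters was thus close to that of CpG-rich promoters in general, and their median values of 4.22 and 3.31 were slightly above those of that class.

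The alpha subunits Psma1 to Psma7 form the outer rings, which gate the entry to the core. All 7 had a promoter peak in both libraries, with medians of 3.72 in replicate 1 and 2.92 in replicate 2. Psma2 had the highest values, 8.79 and 5.88, above 94.4% and 95.0% of all protein-coding genes. Psma5 followed with 6.78 and 3.38, though its replicates differed by a factor of 2.00. Psma1 had 5.52 and 4.17. These genes formed the upper end of the ring in replicate 1. The lower end was held by Psma4, with 2.54 and 2.74, and Psma7, with 2.71 and 2.92. Between them lay Psma3, at 3.72 and 2.61, and Psma6, at 3.35 and 2.70. In replicate 2 these 4 genes spanned only 2.61 to 2.92, and their order changed between the libraries, so they were not separated beyond the replicate spread.

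Psma2 shows how one accessible site can serve a pair of genes: the nearest TSS of Mrpl32, a mitochondrial ribosomal protein gene that runs the other way, lay 75 bp from that of Psma2. The middle of the promoter peak was 99.5 bp upstream of the Psma2 TSS in replicate 1 and 129.5 bp in replicate 2, and 24.5 and 54.5 bp from the TSS of Mrpl32. The middle thus lay beyond the Mrpl32 TSS as seen from Psma2, and one peak value stands for both genes. The start window of Psma2 is printed because it holds a footprinted match to the NRF1 word described further on. A footprint is a short stretch inside an accessible site where DNase I cut less often, as happens when a protein covers the DNA. In this and every sequence below capitals mark bases inside a footprint of either library, the sequence runs 5′ to 3′ on the strand of the gene, and it was taken from RefSeq GRCm38.p6.
Psma2, chr13:14612992-14613291, plus strand: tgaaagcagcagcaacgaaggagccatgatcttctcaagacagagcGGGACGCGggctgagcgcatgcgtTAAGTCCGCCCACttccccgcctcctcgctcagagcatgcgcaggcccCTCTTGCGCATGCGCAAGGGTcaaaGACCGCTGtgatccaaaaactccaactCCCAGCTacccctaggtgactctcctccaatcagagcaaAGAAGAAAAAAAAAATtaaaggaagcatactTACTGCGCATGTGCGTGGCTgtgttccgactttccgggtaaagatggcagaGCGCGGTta

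The structural beta subunits Psmb1 to Psmb4, which line the inner rings without cutting, included the strongest promoter of the whole set. Psmb3 had values of 11.2 in replicate 1 and 5.76 in replicate 2, above 98.0% and 94.5% of all protein-coding genes. Psmb1 had 7.23 and 5.30, and the middle of its highest peak lay between its own TSS and that of Tbp, the TATA-binding protein gene, 137 bp away. A second peak, centred 1.5 and 18.5 bp from another TSS of Psmb1, had 4.74 and 4.03. Psmb2 had 5.67 and 6.27, the highest value of all 50 genes in replicate 2. Psmb4 stood apart from these 3 at 2.92 and 2.39. The ranges of Psmb1, Psmb2 and Psmb3 over the libraries overlapped each other, and that of Psmb4 overlapped none of them. The group medians were 6.45 and 5.53, the highest of the 12 role groups in each library.

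The constitutive catalytic subunits had lower median values than the structural ones. Psmb5, the chymotrypsin-like subunit, had promoter values of 2.78 in replicate 1 and 2.27 in replicate 2. Psmb6, the caspase-like subunit, had 5.90 and 3.22. Psmb7, the trypsin-like subunit, had 2.95 and 2.12. Psmb6 was the highest of the 3 in both libraries, and Psmb5 and Psmb7 exchanged order between the libraries. Their medians were 2.95 and 2.27, against 6.45 and 5.53 for the structural genes. The groups overlapped: the structural Psmb4, at 2.92 and 2.39, lay below Psmb6 in both libraries, and in replicate 1 Psmb6 lay above Psmb2.

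The start windows of Psmb5 and Psmb6 are printed because each holds 1 match to the antioxidant response element word TGACNNNGC, the core of the element bound by NFE2L1, the factor known for inducing proteasome genes. In Psmb5 the match TGACGTCGC lies at chr14:54618034-54618042, starting 47 bases before the RefSeq start, and overlapped a footprint in both libraries. In Psmb6 the match TGACGGAGC lies at chr11:70525348-70525356, starting 9 bases before the start. It overlapped a footprint in replicate 1 only, and only with its last bases GAGC, so TGAC lay outside the footprint. A match of letters under a footprint names no bound protein.
Psmb5, chr14:54617946-54618245, minus strand: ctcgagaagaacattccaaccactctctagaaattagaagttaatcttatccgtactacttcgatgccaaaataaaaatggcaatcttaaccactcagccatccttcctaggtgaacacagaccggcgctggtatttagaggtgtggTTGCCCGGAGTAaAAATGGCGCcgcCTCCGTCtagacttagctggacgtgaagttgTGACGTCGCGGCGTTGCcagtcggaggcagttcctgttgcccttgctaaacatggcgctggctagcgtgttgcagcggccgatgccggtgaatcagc
Psmb6, chr11:70525107-70525406, plus strand: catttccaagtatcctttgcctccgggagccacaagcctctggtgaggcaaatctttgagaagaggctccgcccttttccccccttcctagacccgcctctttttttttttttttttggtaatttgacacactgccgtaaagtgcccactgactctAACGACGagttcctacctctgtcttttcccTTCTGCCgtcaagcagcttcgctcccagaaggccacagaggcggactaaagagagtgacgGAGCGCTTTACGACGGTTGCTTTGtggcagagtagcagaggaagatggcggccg

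Within 1 kb the 3 immunoproteasome genes differed from one another more than the constitutive catalytic genes did. Psmb9, which replaces Psmb6, had promoter values of 5.90 in replicate 1 and 4.99 in replicate 2. Psmb8, which replaces Psmb5, had 2.94 and 1.75. Psmb10, which replaces Psmb7, had 0.999 in replicate 1 and no promoter peak in replicate 2. Within 1 kb the values thus ran from Psmb9 through Psmb8 to Psmb10 in both libraries, without overlap between these genes. Psmb9 lay above 85.2% and 90.4% of all protein-coding genes, Psmb8 above 67.0% and 57.8%, and Psmb10 above 47.3% in replicate 1. With a window of 2.5 kb Psmb10 had 3.70 and 2.24 and lay above Psmb8 in both libraries. In replicate 1 the immunoproteasome genes then no longer spread more widely than the constitutive catalytic ones.

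Paired with the subunits they replace, the immunoproteasome genes showed no common direction. Psmb8 had 1.06 times the value of Psmb5 in replicate 1 and 0.773 times in replicate 2, so the order reversed between the libraries. Psmb9 equalled Psmb6 in replicate 1, a ratio of 1.00, and had 1.55 times its value in replicate 2. Psmb10 had 0.338 times the value of Psmb7 in replicate 1, and was listed at 0 in replicate 2 against 2.12 for Psmb7. Within 1 kb only the last of the 3 pairs had the immunoproteasome gene lower in both libraries, and this pair turned round in both with a window of 2.5 kb, where Psmb10 had 3.70 and 2.24 and Psmb7 2.95 and 2.12. The median of the 3 constitutive catalytic genes exceeded that of the 3 immunoproteasome genes by 0.262 ± 0.359 (SD, n = 2 libraries), a difference smaller than its spread. The median of all 14 constitutive core subunits, 4.62 and 3.07, exceeded the immunoproteasome median of 2.94 and 1.75 by 1.496 ± 0.255 (SD, n = 2). The difference from all constitutive core subunits was therefore larger than its spread over the libraries, while that from the catalytic ones was not. With a window of 2.5 kb the former fell to 0.877 ± 0.0661 (SD, n = 2). These spreads are between libraries and not between genes. Within 1 kb the immunoproteasome median is the value of Psmb8 in each library. Psmb9, at 5.90 and 4.99, lay above the median of the 14 constitutive core subunits in both.

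**Figure D2:**
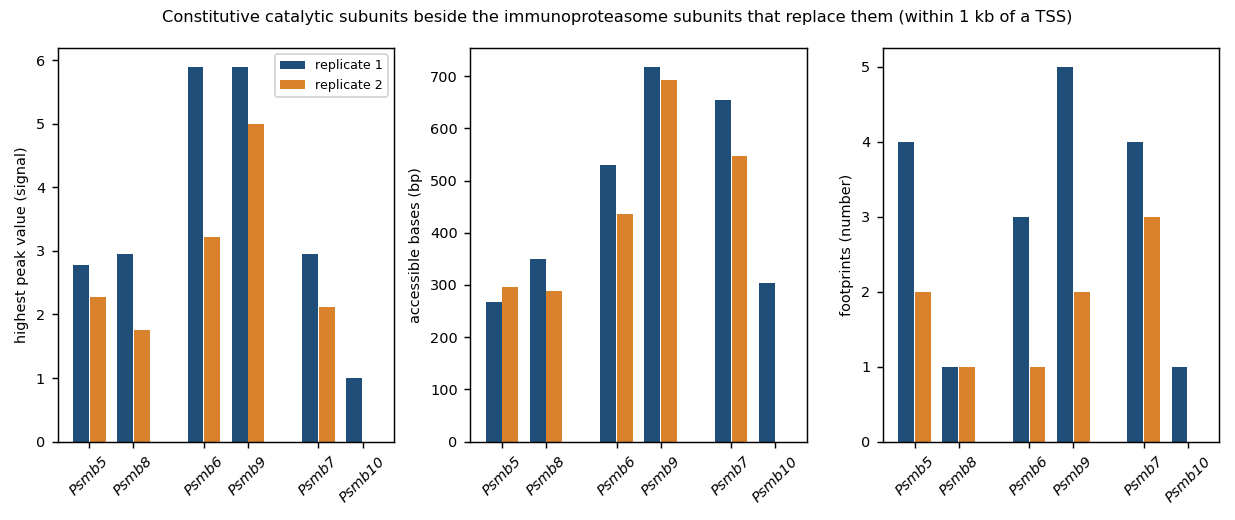
Each constitutive catalytic gene beside the immunoproteasome gene that replaces it, with 1 bar per library: the highest promoter peak value (the authors' signal), accessible bases (bp) and number of footprints, from left to right. Within 1 kb Psmb10 is the only immunoproteasome gene below its partner in peak value in both libraries, which turns round with a window of 2.5 kb, and Psmb8 changes side between them.

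The high value of Psmb9 has to be read with its neighbour. Tap1, which encodes a subunit of the transporter that carries peptides into the endoplasmic reticulum, runs away from Psmb9 with the closest TSS 38 bp from one of Psmb9, on chromosome 17. The middle of the shared peak was 221.5 and 231.5 bp upstream of the nearest Psmb9 TSS in replicates 1 and 2, and 112.5 and 102.5 bp from the nearest Tap1 TSS. Tap1 therefore has the same values, 5.90 and 4.99, and the deposited peak does not separate the genes. The start window of Psmb9 is printed because it carries most of the footprinted bases of the 3 immunoproteasome genes. Its GC box, the word GGGCGG that Sp1 family factors bind, lies at chr17:34187380-34187385 and overlapped a footprint in both libraries.
Psmb9, chr17:34187281-34187580, minus strand: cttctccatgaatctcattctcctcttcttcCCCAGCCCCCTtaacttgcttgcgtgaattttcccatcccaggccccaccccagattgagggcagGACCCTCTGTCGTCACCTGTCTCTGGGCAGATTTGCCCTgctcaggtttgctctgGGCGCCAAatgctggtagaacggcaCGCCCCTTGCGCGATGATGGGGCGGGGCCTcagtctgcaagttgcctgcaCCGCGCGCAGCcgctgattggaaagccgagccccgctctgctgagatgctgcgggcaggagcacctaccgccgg

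At Psmb8 the accessible site lay before the start used by GENCODE, and the RefSeq start window further downstream had no peak and no footprint. Psmb8 had 1 footprint in each library, the same one, and it covered the cyclic-AMP response element word TGACGTCA at chr17:34197661-34197668. This word is in 2.41% of the start windows of all protein-coding genes, and 81.1% of its copies there overlapped a footprint. A word for NF-kB, GGGA and CCC with 3 free bases between, lay beside it and overlapped no footprint. The stretch of the replicate 1 peak before the gene is printed to show this footprint.
Psmb8, chr17:34197581-34197720, plus strand: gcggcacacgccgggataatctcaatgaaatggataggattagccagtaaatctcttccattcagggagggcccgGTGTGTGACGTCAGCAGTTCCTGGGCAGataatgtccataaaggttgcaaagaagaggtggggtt

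Psmb10 was the only one of the 6 catalytic genes without a promoter peak in replicate 2. Its replicate 1 peak, at chr8:105937601-105937860, was centred 713.5 bp downstream of the TSS in an exon, and a weaker one with a value of 0.628 was centred 400 bp downstream. The RefSeq start window of the gene held no peak and no footprint. A stronger site lay in an intron just outside the 1 kb window in both libraries. It had a value of 3.70 in replicate 1, at chr8:105936981-105937200, with its near edge 1244 bp from the TSS, and 2.24 in replicate 2, at chr8:105936941-105937340, with its near edge 1104 bp away. With a window of 2.5 kb this site counted, and the constitutive minus immunoproteasome difference of the catalytic medians became -0.356 ± 0.547 (SD, n = 2). It was -0.743 in replicate 1 and 0.031 in replicate 2, so it turned in replicate 1 only and stayed smaller than its spread. The low value of Psmb10 therefore describes the start of the gene and not its whole locus.

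Markers of the cell types known for immunoproteasome expression were weak in this tissue and differed between the libraries. Of 5 microglial markers 4 had a promoter peak in replicate 1 and 1 in replicate 2, with summed values of 3.41 and 1.67. Cx3cr1 was at 0 in both libraries, and Irf8 had 1.63 and 1.67. Of 3 endothelial markers 1 had a peak in replicate 1 and none in replicate 2, with summed values of 0.283 and 0. The 3 lymphocyte markers were at 0 in both. The sums of the other brain classes were higher in replicate 1 too: neurons had 18.3 and 12.04, astrocytes 5.39 and 2.69, and oligodendrocytes 3.99 and 1.75. Psmb8, Psmb9 and Psmb10 were also higher in replicate 1, as were most genes, and the part of any cell type in this was not tested.

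The core subunits of single tissues had no listed site at their promoters. Psma8, the alpha subunit of the testis form of the proteasome, and Psmb11, the beta subunit of cortical thymic epithelium, had no promoter peak, no footprint and no accessible base in either library. The peak nearest to Psmb11, which is the promoter peak of Psmb5, lay 3313 bp away in each library. The peak nearest to Psma8, close to a TSS of Ss18, lay 22731 bp away in replicate 1 and 22991 bp in replicate 2. The markers of their tissues were near 0 as well: none of 3 testis markers had a peak in either library, and of 2 thymic epithelial markers 1, Prss16, had a value of 0.743 in replicate 2 only.

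In the 19S cap the 6 ATPases Psmc1 to Psmc6 form the ring that unfolds substrates. All 6 had a promoter peak in both libraries, with medians of 5.03 and 3.71. Psmc4 was highest with 8.81 in replicate 1 and 5.74 in replicate 2, and Psmc5 had 7.00 and 4.54. Psmc3 had 6.83 and 4.34. These 3 were above the others of the ring in both libraries. Psmc2 had 3.23 and 3.07, and its peak also covers the start of Dnajc2, a ribosome-associated chaperone gene, 32 bp away: the middle was 52.5 bp upstream of the Psmc2 TSS and 14.5 bp from that of Dnajc2 in both libraries. Psmc6 had 3.09 and 2.08. Psmc1, whose product takes part in opening the gate of the core, was lowest with 1.63 and 1.57, below every other constitutive subunit of the core and the 19S cap in both libraries. Psmc1 was also the only ATPase gene with footprints in 1 library only, 4 in replicate 1 and 0 in replicate 2.

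The start window of Psmc5 is printed because it holds matches to 3 of the words searched that overlapped a footprint. The NRF1 match GCGCCTGCGC at chr11:106256136-106256145 and a GC box at chr11:106256078-106256083 each overlapped a footprint in both libraries. The YY1 word AAGATGGC at chr11:106256188-106256195 was touched at its ends only. The footprint at its last bases was in replicate 1 and a different one at its first bases in replicate 2, so no shared footprint covered it. Its TSS lay 75 bp from that of Ftsj3, a ribosomal RNA processing gene on the other strand.
Psmc5, chr11:106255935-106256234, plus strand: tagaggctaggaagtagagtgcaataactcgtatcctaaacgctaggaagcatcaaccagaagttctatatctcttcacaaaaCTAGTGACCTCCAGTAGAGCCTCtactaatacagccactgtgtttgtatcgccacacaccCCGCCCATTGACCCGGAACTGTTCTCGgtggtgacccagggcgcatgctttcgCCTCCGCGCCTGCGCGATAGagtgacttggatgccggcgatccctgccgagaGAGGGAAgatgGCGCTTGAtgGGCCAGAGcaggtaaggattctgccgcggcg

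The 11 non-ATPase subunits hold the ubiquitin receptors, the deubiquitinase and the scaffold of the cap. All 11 had a peak in both libraries, with medians of 5.22 and 3.94. Psmd4, a ubiquitin receptor, had 8.16 and 4.50, and Psmd8 had 7.60 and 4.26. In replicate 2, however, Psmd3 with 5.54 and Psmd2 with 4.86 were above both. Psmd3 had 6.28 and Psmd2, a scaffold subunit, had 6.05 in replicate 1. The order at the top was therefore not kept between the libraries. Psmd11 had 6.82 and 4.54, Psmd12 had 5.22 and 3.94, Psmd7 had 4.78 and 3.42, and Psmd13 had 4.39 and 3.68.

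The lower end of the non-ATPase group was the same in both libraries. Psmd14, the deubiquitinase that removes ubiquitin chains before degradation, had 3.40 and 2.20. Psmd1, the other large scaffold subunit, had 3.09 and 2.44, and Psmd6 had 3.32 and 2.90. These 3 were below the other 8 in each library. Psmd14 and Psmd1 exchanged order between replicates, though the highest peak of Psmd1 was another site in each.

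Genes for assembly chaperones were accessible like those of the particles they build. The 19S chaperones, which hold ATPases until the base is complete, had medians of 5.11 and 3.72. Psmd9 had 5.76 and 4.66, Psmd5 had 4.78 and 3.72, and Psmd10, also called gankyrin, had 5.11 and 1.82. The 20S chaperones Psmg1 to Psmg4, which guide the alpha ring, had lower medians, 3.02 and 3.29. Psmg1 had 4.11 and 3.90, and Psmg4 had 3.51 in both libraries. Psmg3 had 2.52 and 3.06, and Psmg2 had 1.75 and 2.36. All 7 chaperone genes had a peak in both libraries.

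The start window of Psmd9 is printed as the third with a footprinted antioxidant response element word, TGACCCCGC at chr5:123228159-123228167, 31 bases before the RefSeq start. The match overlapped a footprint in both libraries. It shares 4 of its bases with a GC box on the other strand at chr5:123228164-123228169, so the footprint cannot be assigned to one of the words.
Psmd9, chr5:123227940-123228239, plus strand: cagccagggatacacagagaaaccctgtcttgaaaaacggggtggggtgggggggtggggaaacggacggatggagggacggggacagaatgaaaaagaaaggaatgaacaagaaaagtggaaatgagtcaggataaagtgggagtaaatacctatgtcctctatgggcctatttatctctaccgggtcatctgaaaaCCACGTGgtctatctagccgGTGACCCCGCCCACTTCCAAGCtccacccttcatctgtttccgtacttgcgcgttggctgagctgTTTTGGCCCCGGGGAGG

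Alternative caps and the inhibitor covered a wide range. Psme1 and Psme2 encode the interferon-inducible PA28 cap that joins the immunoproteasome. Psme1 had 1.32 and 1.76, the lowest mean of all genes with a peak in both libraries, and Psme2 had 6.49 and 3.31. Psme3, the nuclear PA28 subunit, had 3.81 and 3.82, and Psme4, the PA200 cap known from chromatin and spermatogenesis, had 4.33 and 2.84. Psme2b had no peak, and the nearest one lay 37870 bp away in replicate 1 and 86943 bp in replicate 2. The partners Psme1 and Psme2 thus lay far apart although both encode subunits of one ring. The inhibitor gene Psmf1 had 2.65 and 3.49. Psmc3ip, which is no subunit, had 4.88 and 3.30, within the range of the subunits.

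At 3 of the 46 genes with a peak in both libraries, Psmd1, Psme2 and Psmg2, the highest peaks of the libraries did not overlap. Each of these promoters held a pair of sites, present in both libraries, whose order changed. At Psme2 the site at its TSS had 6.49 and 3.15, and a site near a TSS of Rnf31, a ubiquitin ligase gene, had 5.76 and 3.31. At Psmg2 the site next to a TSS of Cep76, a centrosomal protein gene, had 1.75 and 1.72, and the site at its own TSS had 1.11 and 2.36. At Psmd1 a site centred 268.5 bp upstream had 3.09 and 2.41, and the site at the TSS had 1.37 and 2.44. For these 3 genes the promoter values of the libraries therefore come from different sites. How often this occurs over all protein-coding genes is not given here, so the count is no trait of the proteasome genes.

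Most promoter values were higher in replicate 1. Of the 46 genes with a peak in both libraries 38 (82.6%) had a replicate 1 to replicate 2 ratio above 1, against 73.7% of the 12895 protein-coding genes with a peak in both. The median ratio was 1.30 against 1.23. The largest ratios were 2.81 at Psmd10, 2.00 at Psma5 and 1.96 at Psme2. The smallest were 0.741 at Psmg2, 0.747 at Psme1 and 0.761 at Psmf1. By role, 6 of 6 ATPases, 11 of 11 non-ATPases and 2 of 4 core chaperones were above 1, and differences between such small groups were not tested. Because the scale of the signal is not stated, a common shift between the libraries cannot be told apart from a difference in scale, and means and ratios over the libraries rest on that scale. Over the 46 genes the log2 values of the libraries correlated with a Pearson r of 0.805 and a Spearman rho of 0.805, against 0.934 and 0.938 over all 12895 genes, which span a wider range of values. These points share their libraries and are given as a description.

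The sites themselves were centred near the TSS. The highest promoter peak had a median width of 220 bp in replicate 1 and 240 bp in replicate 2, against 196 and 200 bp over all peaks. The positions that follow are given for the proteasome genes only, without a share over all genes. Its middle lay within 250 bp of the nearest TSS for 44 of 47 genes in replicate 1 and for 45 of 46 in replicate 2, with median positions of 26.5 and 15.5 bp upstream. By the annotation the middle was upstream of the gene for 29 of the 47 genes in replicate 1 and for 23 of the 46 in replicate 2. It was in an intron for 3 and 4 genes, and in an exon for the others.

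Bases listed by the authors as accessible at an FDR under 0.05 gave a measure of how much of each promoter was open. The median was 759 bases in replicate 1 and 723 in replicate 2, against 438 and 418 over all protein-coding genes but 831 and 827 over CpG-rich ones. The open length was thus above the all-gene median and below that of CpG-rich genes. Psmb1 had the most with 1606 and 1709 bases, and Psmb3 had 1432 and 1238. Psmb5 with 267 and 297 bases and Psmb8 with 349 and 289 had the fewest of the genes with a peak in both libraries. Psmb5 and Psmb8 thus had short open stretches. Psmb10 had 304 bases in replicate 1 and 0 in replicate 2. Genes with several TSSs can have longer windows, up to 6 TSSs at Psmd11, so base and footprint counts are not taken over equal lengths. Whether the counts rise with the number of TSSs was not tested.

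Footprints were found at nearly every accessible proteasome promoter. In both libraries 45 of 50 genes (90%) had at least 1, against 56.0% of all protein-coding genes. The median number per gene was 5 in replicate 1 and 4 in replicate 2, against 3 and 2, and the means were 4.66 and 3.70 against 3.35 and 2.61. CpG-rich genes had the same medians of 5 and 4, higher means of 5.48 and 4.36, and footprints in both libraries in 88.5%, so the proteasome genes were near that class. The genes with most were Psmb1 with 10 and 7, Psme2 with 8 and 8, and Psmb3 with 10 and 5. The catalytic genes had few: Psmb5 had 4 and 2, Psmb6 had 3 and 1, and Psmb7 had 4 and 3. Of the immunoproteasome genes Psmb9 had 5 and 2, Psmb8 had 1 in each library, and Psmb10 had 1 in replicate 1 and none in replicate 2. Constitutive core genes had a median of 5 and 4 footprints and immunoproteasome genes of 1 and 1. The accessible length beside it, 759 and 843 bases against 349 and 289, differed the same way. Among the catalytic pairs the measures went opposite ways only at Psmb5 and Psmb8 in replicate 1. There Psmb5 had 267 bases and 4 footprints, and Psmb8 had 349 and 1. Whether footprint number depends on open length was not tested.

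Distinct footprints at the 50 promoters numbered 233 in replicate 1 and 185 in replicate 2. Their median length was 11 and 9 bp, against 9 bp in each library over the genome. Those of replicate 1 overlapped a footprint of replicate 2 in 113 cases (48.5%), and those of replicate 2 one of replicate 1 in 121 cases (65.4%). Many single footprints were therefore seen in 1 library only and have no replicate. The libraries list 227153 and 118610 footprints over the genome, so the 2 shares have unlike bases. The middle of 178 (76.4%) and 147 (79.5%) lay from 250 bp before to 50 bp after a TSS, and 160 (68.7%) and 119 (64.3%) lay upstream. Shares of overlap and position over all protein-coding genes are not given here, so these describe the 50 promoters only.

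**Figure D3:**
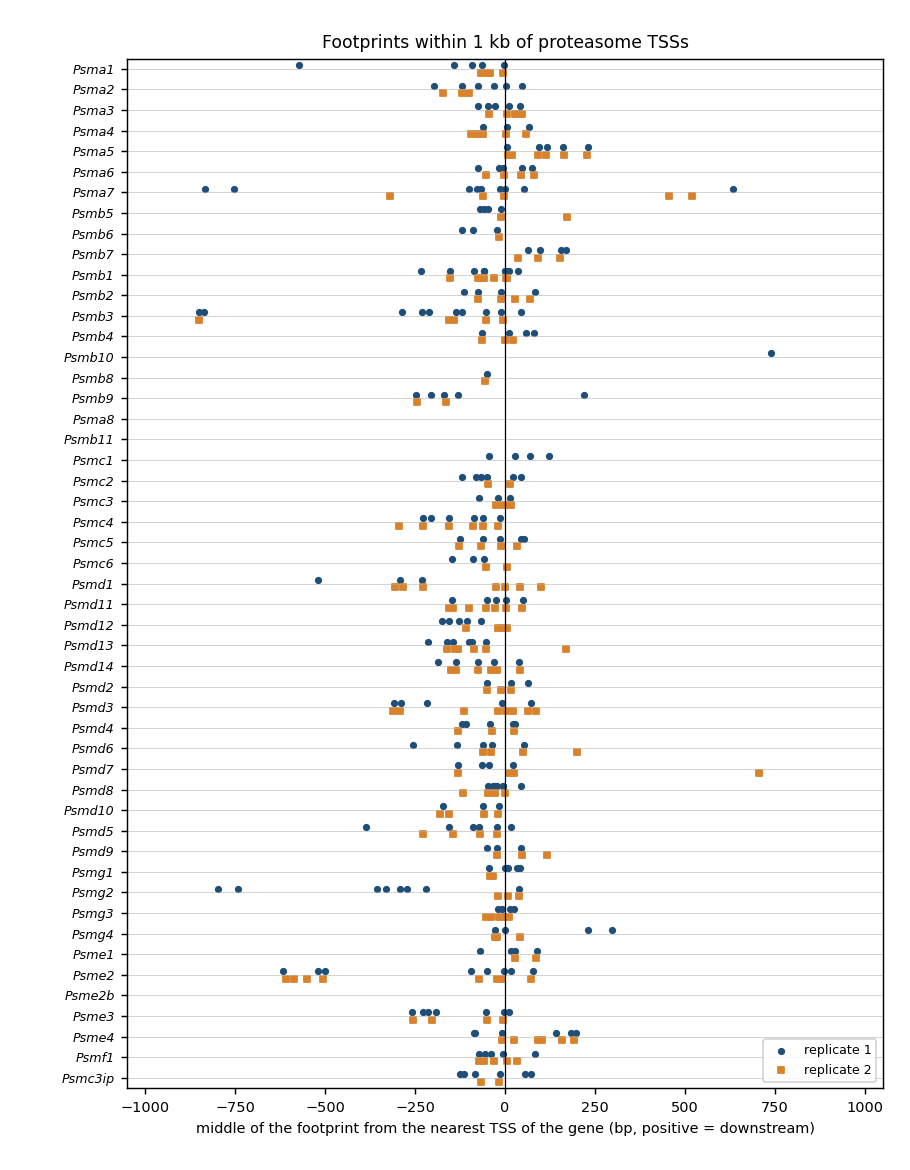
Footprints around the nearest TSS of each proteasome gene; the horizontal axis is the distance from the TSS in bp, upstream to the left, each row is a gene and colours are the libraries. Footprints crowd just upstream of the TSS, and the rows of Psma8, Psmb11 and Psme2b are empty.

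Sequence words, 12 in all, were searched on both strands in the 42 RefSeq start windows and in those of all protein-coding genes. The windows of Psma6, Psmb8, Psmb10, Psmb11 and Psme2b overlapped no peak, and those of the other 37 genes did. Words common in housekeeping promoters were the most frequent. The ETS word CCGGAAG was in 14 of 42 windows (33.3%), against 12.3% of all genes and 20.1% of CpG-rich genes. The NRF1 word, which reads GCGC, any base, then TGCGC, was in 7 (16.7%), against 6.89% and 13.0%. The GC box GGGCGG was in 23 (54.8%), against 48.0% of all genes but 74.6% of CpG-rich ones. The CCAAT box was in 15 (35.7%), against 38.8% and 37.6%. The share of ETS words was thus well above both backgrounds, that of NRF1 words was slightly above the CpG-rich one, and that of GC boxes lay between the backgrounds.

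The 7 genes with the NRF1 word were Psma2, Psma3, Psma4, Psmc4, Psmc5, Psmd14 and Psmg1, from the alpha ring, the 19S cap and a chaperone. All 7 words overlapped a footprint of at least 1 library, against 83.4% of such words at all genes. GC boxes were footprinted at 39 of 45 words (86.7%), against 42.3% at all genes, whose windows include closed ones. The ETS word was footprinted at 8 of 17 (47.1%, against 44.1%) and the CCAAT box at 8 of 26 (30.8%, against 19.3%). Counting either library, footprints thus fell on all NRF1 words, on most GC boxes, and on fewer than 1 in 2 ETS words and CCAAT boxes. In replicates 1 and 2 taken separately 34 and 30 GC boxes and 7 and 6 NRF1 words overlapped a footprint. For ETS words the counts were 8 and 4, and for CCAAT boxes 7 and 6.

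Words of induced transcription were in few windows. The antioxidant response element word was in 6 of 42 windows (14.3%), close to the 13.3% of all genes, at Psmb5, Psmb6, Psmd9, Psmc6, Psmd12 and Psme4. It overlapped a footprint at the first 3 of these, at Psmb6 in replicate 1 only and with its last bases only. The interferon-stimulated response element word, GAAA and GAAA with 2 free bases between, was in 5 windows (11.9%), against 3.46% of all genes and 2.28% of CpG-rich genes, at Psmb3, Psmd4, Psmd9, Psme1 and Psmg4. Only 1 of these 5 words was footprinted. None lay in an immunoproteasome window, though those of Psmb8 and Psmb10 lie away from their peaks. The gamma-activated site word TTCCNGGAA was in none of the windows. It did lie in the replicate 1 peak of Psmb10, as TTCCTGGAA at chr8:105937764-105937772, without a footprint. The NF-kB word was in 1 window (2.38%), against 6.09%, and the TATA word TATAAA in 4 (9.52%), against 12.9%. The YY1 word was in 3 windows (7.14%), against 3.25% of all genes and 5.27% of CpG-rich ones. The E box CACGTG was in 4 (9.52%), against 8.10% and 11.5%, and the cyclic-AMP response element word was in none, against 2.41% and 3.87%. That word did lie under a footprint in the promoter peak of Psmb8, which is outside the window of this gene.

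**Figure D4:**
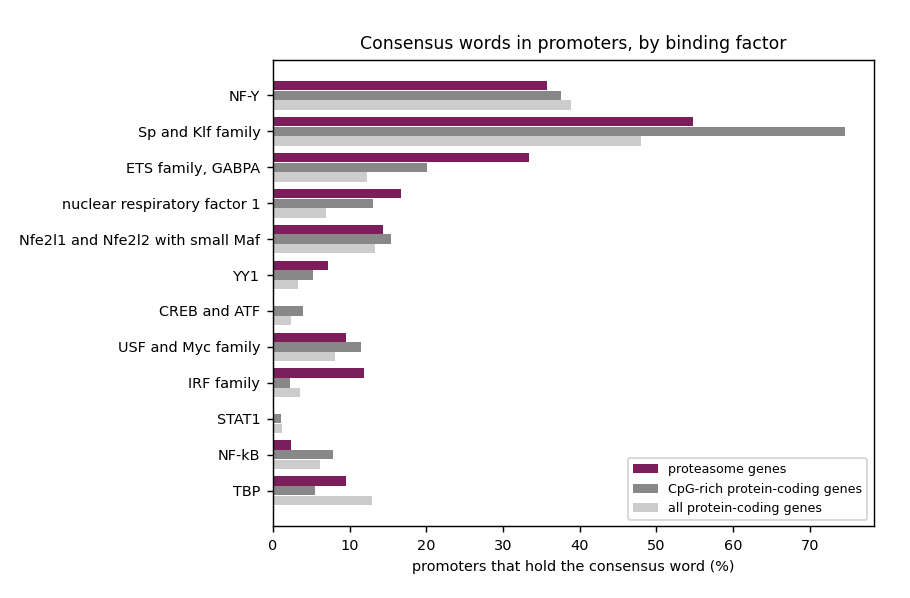
Share of start windows that hold each sequence word, in percent, for the 42 proteasome genes, all protein-coding genes and CpG-rich genes. The ETS, NRF1, YY1 and interferon-stimulated response element words are above both backgrounds, and the GC box is between them.

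Several proteasome genes share their accessible site with another gene. A coding TSS of another gene lay within 1 kb of 12 of the 50 genes (24.0%). The share was 12.9% over all protein-coding genes and 20.7% over CpG-rich ones. Of these 12, 11 (22.0% of the 50) and their neighbours ran in opposite directions away from each other. That share was 9.87% over all genes and 17.8% over CpG-rich ones, so both shares were closer to those of CpG-rich genes. Besides those named above the pairs were Psma4 with AY074887 at 106 bp and Psma7 with Ss18l1 at 76 bp. Psmd13 lay 99 bp from Sirt3, a mitochondrial deacetylase gene, and Psmd10 179 bp from the autophagy gene Atg4a. Psme2 and Rnf31 were 595 bp apart, and Psmg2 and Cep76 263 bp. The 12th was Psmg3 with Gm26938 at 436 bp. Genes with a divergent partner had medians of 5.11 and 3.31, and the 39 without had 3.81 and 3.30. The difference was seen in replicate 1 only. Over all protein-coding genes with such a partner the medians were 5.02 and 3.85.

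Away from promoters the share of proteasome genes with an accessible site was that of all genes, and below that of CpG-rich genes. Within the genes and 10 kb on each side, 49 distal peaks were found in both libraries, 10 of them inside a gene. At least 1 was present at 26 of 50 genes (52.0%), against 52.3% of all protein-coding genes, and the mean was 0.98 per gene against 1.38. Over CpG-rich genes the share was 62.9% and the mean 1.69. The proteasome genes were also shorter than all genes, with a median length of 11.6 kb against 17.4 kb, which leaves less sequence to search. The part of gene length in the lower mean was not tested. The median value of these distal peaks was 1.41 in replicate 1 and 1.16 in replicate 2, below the promoter medians of 4.22 and 3.31. Psmc1 and Psmb7 had the most, 5 each, followed by Psmd9 with 4. Psmc1 thus joined the lowest ATPase promoter with the largest number of distal sites.

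Proteasome genes with other names were accessible too, at higher medians than the 50. Of 10 listed, 9 were found in the annotation, and all 9 had a peak in both libraries, with medians of 5.79 and 4.83. Ube3c, a ubiquitin ligase on the proteasome, had 8.63 and 6.80, and Uchl5, a deubiquitinase of the cap, had 7.03 and 5.60. The lowest by mean was Ecpas, a proteasome adaptor, with 1.52 and 1.59. Pomp, the core maturation factor, had 4.12 and 2.91, and Sem1, a small subunit of the cap, had 3.53 and 3.51, nearly the same mean. Of regulators and ubiquitin shuttles 10 of 10 had a peak in both, with medians of 3.87 and 3.22. Rad23b, which delivers ubiquitylated proteins, reached 13.5 and 9.55, and the unfolding ATPase Vcp 12.1 and 5.94. The lowest of these by mean were Ubqln2, a shuttle, with 1.59 and 1.38, and Nfe2l2, the oxidative stress factor, with 2.26 and 1.33.

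Antigen processing and interferon response genes, the company of the immunoproteasome, were accessible at lower values. All 12 had a peak in both libraries, with medians of 2.61 and 1.96, near the 2.94 and 1.75 of the immunoproteasome genes. Stat2, an interferon signalling factor, had 7.78 and 4.41, and Tap1, which shares its peak with Psmb9, had 5.90 and 4.99. Nlrc5, the MHC class I transactivator, had 0.884 and 0.516, and H2-K1, an MHC class I heavy chain, had 0.973 and 1.04. In replicate 1 Psmb10 lay near H2-K1, and Psmb9 equals Tap1 in both libraries, so the immunoproteasome genes were spread widely over the range of this list.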

How the data were processed

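DNase-seq was done on 2 libraries of 1 group. Per the labels, the deposited files are on mm10 (GRCm38): for each library a longer and a shorter peak list, footprints, and single bases with an FDR. Aligner and callers: not given in the sources used here. The peak signal was deposited by the authors with no stated scale. Values below 1 were all whole numbers of a library's step (100%, tolerance 0.05 steps), which would mean 113 and 96.9 M tags on a scale per M tags. The deposited base lists hold FDR values (q-values) under 0.05, and the deposited footprint lists give 0.01 on every line. Reads of an F1 hybrid can map less well where CAST/EiJ differs from the assembly, and any handling of this is not described.

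Annotation was GENCODE M21, with 85 protein-coding genes left out for lack of a coding transcript. Peaks, footprints and bases that overlapped a promoter window (1 kb to each side of a TSS) by at least 1 bp were taken, and the highest peak value was kept. Sequences were RefSeq windows on GRCm38.p6: 42 of 50 genes matched, and all 42 were the same as the genome sequence. Psma8, Psmb1, Psmb2, Psmb7, Psmc3, Psmd3, Psmd7 and Psmg2 had no window. The members, lists and words were chosen with earlier results of these data known. Named were the catalytic and immunoproteasome genes, genes without a peak, the 2 highest and 2 lowest per role group and list, the extremes of footprints and of replicate ratio, and genes with a neighbouring TSS; other names were chosen after their values were seen. Alternatives were the shorter lists, other windows, TSS sets, flanks and thresholds, and each replicate left out. The counting was tested on simulated data. Software: Python 3.11.15, pandas 2.3.3, NumPy 2.4.6, pysam 0.24.0 and matplotlib 3.10.9.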

Additional observations from a re-analysis of the deposited data

How the results depend on the processing

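The catalytic difference depended on the window: the constitutive minus immunoproteasome difference of the medians was 0.262 with 1 kb and -0.356 with 2.5 kb, where the intron site of Psmb10 counted, and 0.706 with summed peak values. Against all constitutive core genes the difference of 1.496 became 0.877 with 2.5 kb and 2.10 with summed values. Summed values gave a median over the proteasome genes of 4.61. The mean of the libraries' median accessible bases was 741, and became 561 at an FDR under 0.001 and 709.5 with 500 bp windows. The count of 49 distal peaks became 10 without flanks, 155 with 50 kb flanks and 30 with the shorter lists. Leaving out each replicate gave 46 to 47 genes with a peak, medians of 3.31 to 4.22, catalytic differences of 0.009 to 0.516, differences from all constitutive core genes of 1.32 to 1.68, means of 3.70 to 4.66 footprints, 723 to 759 bases and 57 to 94 distal peaks. With the start of the gene record only, Psma6, Psmd5, Psmd9 and Psmf1 lost their peak, which left 42 genes with one in both libraries. In windows of 500 bases before to 100 after the start the antioxidant response element word was in 13 (31.0%, against 22.5% of all genes) and no longer close to the all-gene share, and the interferon-stimulated one in 8 (19.05%, against 7.30%). A window of 250 bp was added after the data were seen. No paired analysis was possible because the labels give 1 group. Sequencing depth is not given in the files, and a gene listed at 0 may have a site under the authors' threshold.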
